A study of Fragaria x ananassa with 21 samples.

Results

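The control receptacle was followed over the first days of ripening by comparing the transcriptome of water-injected strawberry fruit at day 5 (CK5) with that at day 0 (CK0). A unigene, that is, a transcript assembled without a genome, was included when it reached at least 1 RPKM (reads scaled by transcript length in kilobases and by library size) in CK0 or in CK5. This held for 50956 of the 109953 assembled unigenes, which came from 24894 of the 67232 Trinity components, the clusters of related transcripts the assembler makes. Of these unigenes, 46909 reached 1 RPKM in CK0, 43266 in CK5 and 39219 in both. Just inside the threshold the lowest member reached 1.000066 RPKM in its higher library, and the highest unigene left out reached 0.999913 RPKM. A further 53909 unigenes had reads in CK0 or CK5 but stayed under the threshold, and 5088 had none in either.

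Both libraries came from the octaploid strawberry Fragaria × ananassa, cultivar 'Toyonoka', grown in a greenhouse. Each fruit received 100 µL of distilled water, given into the core of the receptacle by way of the pedicel 2 weeks after anthesis, which was counted as day 0. The achenes had been cut off before the RNA was taken. RNA from several fruits was mixed for each condition before a single library was made, so that 1 pooled library stood on each side. The difference between CK0 and CK5 therefore had no replicate check, and no p-value is given for it. The series also held 1 library each for control fruit at day 8 (CK8), for fruit given 1 µM abscisic acid (ABA5 and ABA8) and for fruit given 100 µM NDGA, a blocker of ABA synthesis (NDGA5 and NDGA8). Values from those libraries are set beside a few unigenes below and are not compared by any test. All 7 libraries were from injected fruit, so the injection itself cannot be told apart from the passage of time.

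The strawberry is a false fruit whose flesh is the swollen flower receptacle, while the achenes on its surface are the true fruits. It ripens without the burst of ethylene typical of climacteric fruits, and ABA is known to promote its ripening whereas auxin from the achenes holds it back. As the receptacle passes from green to white and then red, it loses chlorophyll, softens and accumulates anthocyanins, pigments made from phenylalanine through the phenylpropanoid and flavonoid pathways.

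Summed over unigenes, CK0 held 57773971 reads and CK5 61805561, within the 53653395 to 89152239 reads of the 7 libraries. Unigenes of a component can share reads, so one may be counted more than once in these sums and in component levels below. Reads fell on 99182 unigenes in CK0 and on 89508 in CK5, and the 50956 unigenes held 99.1% and 99.3% of them. The reads were more concentrated in CK5, where the 10 best expressed unigenes of the library took 4.48% of all reads against 2.81% in CK0, and the 1000 best expressed took 34.2% against 30.9%. For a transcript of 1 kb, 1 read was worth 0.0173 RPKM in CK0 and 0.0162 RPKM in CK5. Achene and seed storage proteins could not be used to check how clean the dissection was, since no described member bore such a name. In pooled tissue, fewer cells of a type and less RNA per cell cannot be told apart.

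A unigene was called higher or lower when its level differed by at least 1.5-fold on RPKM + 0.1, a rule of size and not a test. By this rule 8695 unigenes (17.1%) were higher in CK5 and 15300 (30%) were lower, so that 36.2% of the 23995 calls were higher. Components, with the reads of all their unigenes added together, gave the same picture, as 4093 of 25889 (15.8%) were higher and 7746 (29.9%) were lower. The minimum of 1 RPKM was applied anew to these summed levels, so this set differs from the 24894 components that held a member. The median log2 ratio of the members was −0.16, and between the 25th and 75th percentiles it ran from −0.73 to 0.34. Among the unigenes with at least 1 RPKM in both libraries the median lay 0.10 below 0 on the log2 scale, and after CK5 was rescaled by that median the calls became 10555 higher and 13606 lower, with 43.7% of them higher. Ratios below are given without that rescaling.

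**Figure D1:**
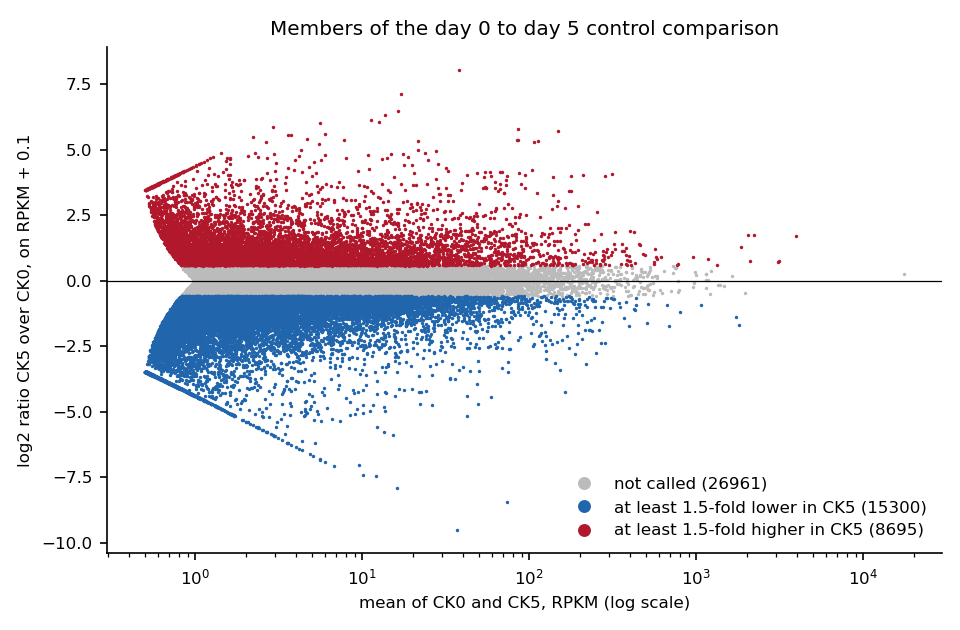
The log2 ratio of CK5 over CK0 on RPKM + 0.1 (vertical axis) is plotted against the mean RPKM of the pair (logarithmic horizontal axis) for the 50956 unigenes, with those called higher and lower in colour. Lower unigenes outnumber higher ones at low expression, and above 50 RPKM the higher ones are the more numerous.

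Lower calls outnumbered higher ones in every class of mean level up to 50 RPKM. Of the 5805 unigenes with a mean under 1 RPKM, 57.7% were lower and 30.0% higher, and these had entered only through the library where they were high. Between 10 and 50 RPKM, 17.8% were lower and 13.7% higher, and from 50 to 100 RPKM the order was turned, with 15.5% lower and 19.7% higher. Of 918 unigenes between 100 and 1000 RPKM, 19.9% were higher and 15.8% lower, and above 1000 RPKM 9 of 25 were higher and 3 lower. In reads, the higher unigenes grew from 10.1% of the CK0 library to 23.9% of CK5, while the lower ones shrank from 23.2% to 10.6%. The median higher unigene went from 1.54 to 3.61 RPKM, and the median lower one from 3.02 to 1.18 RPKM. Members that were not called were longer, with a median of 1264 nt against 802 nt for the higher and 917 nt for the lower ones. Restricting the count to the 39219 unigenes with at least 1 RPKM in both libraries, a choice made after the values were seen, left 5302 higher (13.5%) and 8467 lower (21.6%).

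**Figure D2:**
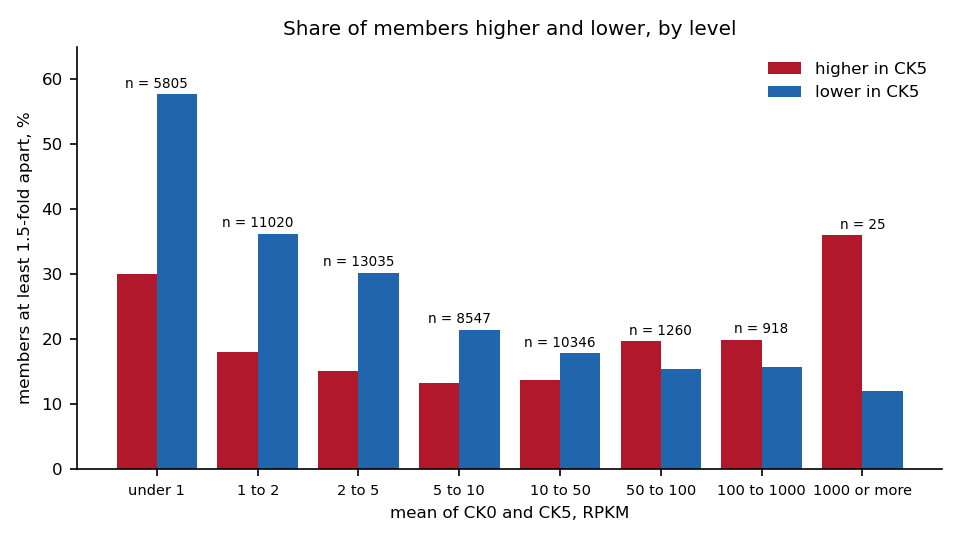
Bars give the percentage of unigenes called higher and lower in CK5 in each class of mean RPKM, starting from 0. The lower share drops from 57.7% under 1 RPKM to 15.8% between 100 and 1000 RPKM, where the higher share is 19.9%.

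Changes of at least 4-fold were seen in 1390 higher (2.73%) and 3155 lower (6.19%) unigenes, and changes of at least 10-fold in 369 (0.724%) and 1120 (2.2%). At least 50-fold, 10 were higher (0.0196%) and 37 lower (0.0726%). No read was found in CK0 for 167 members (0.328%) and none in CK5 for 728 (1.43%). Their median lengths were 262 and 333 nt, against 802 nt or more in the groups above, and their highest levels in the other library 5.84 and 73.4 RPKM. At 5 RPKM or more in the other library, 1 was found in CK5 alone and 27 in CK0 alone. Unigenes of one component did not always move together, since 784 of the 11325 components with at least 2 members held both a higher and a lower one.

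The members with the largest ratios had no description in the deposited tables. For comp89769_c0_seq1 the level was 0.188 RPKM in CK0 and 76.1 RPKM in CK5, from 19 and 8228 reads, and it was 32.9 RPKM in CK8, 197 in ABA5 and 10.4 in NDGA5. A second one, comp104806_c0_seq3, went from 2 reads to 511 (0.142 to 34.0 RPKM) and stood at 0.485 RPKM in CK8. In the other direction, comp89427_c0_seq1 went from 147 to 0.329 RPKM, and comp121608_c0_seq1 from 73.4 RPKM (1001 reads) to no read, at least 357-fold lower when a count of 0 is taken as 3 reads. In CK8 the level was 133 RPKM for the former and 57.1 RPKM for the latter, while ABA5 held 0.320 RPKM of the former and no read of the latter. A description was at hand for 549 members, 274 through the study's lists of pathway enzymes and the others through the degradome table, and the rest of the account is about these and about members with a Gene Ontology term.

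In all, 12 lists of enzymes and regulators covered the pathways of pigments and vitamins. The unigenes and enzyme headings were the study's, and their grouping into lists was made here. They were chosen on these samples, so they are not independent evidence of a direction. Of their 336 unigenes 274 were members, of which 52 were higher and 96 lower (median log2 ratio −0.25) beside −0.16 for all members, of which 17.1% were higher and 30% lower. Counted by component, 27 of 159 were higher and 55 lower, beside 15.8% and 29.9% of all components. Each unigene below is given with its fold on RPKM + 0.1 and, in brackets, the 95% counting interval of its ratio of reads, each relative to its library, without that 0.1 (exact, from a binomial count). The reads are not independent molecules, so these intervals cover counting error only.

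**Figure D3:**
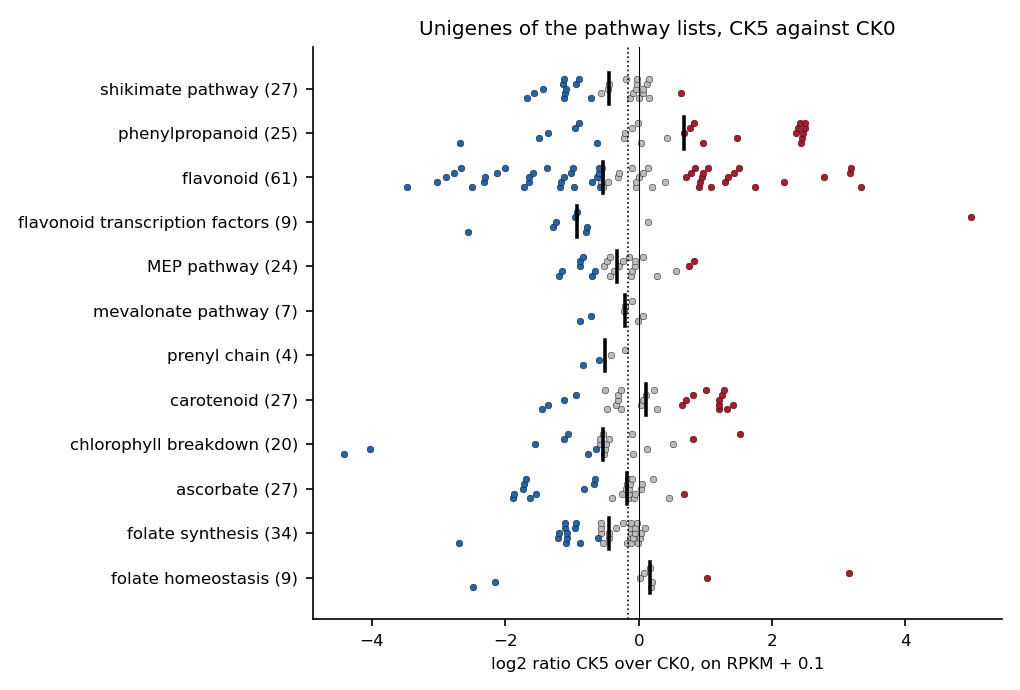
Each point is a member unigene of a pathway list, placed by its log2 ratio of CK5 over CK0 on RPKM + 0.1. A bar marks the list's median, a solid line marks equal levels, and a dotted line marks the median of all members. Phenylpropanoid unigenes have a median of 0.68, while those of the flavonoid transcription factors have a median of −0.92.

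The shikimate pathway makes chorismate, the precursor of phenylalanine, in the plastid. Its list of 35 held 27 members, 1 of them higher and 11 lower (median log2 ratio −0.45). The first step changed little, as the best expressed DAHP synthase unigene (comp115126_c1_seq7) was at 23.3 RPKM in both libraries. So did EPSP synthase (comp113558_c0_seq1), the target of glyphosate, at 20.0 and 20.9 RPKM. Shikimate kinase, which phosphorylates shikimate, was lower in 4 of 7 unigenes, 2 of which were described as inactive relatives. A further 2 lower calls were in dehydroquinate dehydratase/shikimate dehydrogenase. The others were in chorismate synthase, the last step, where 5 unigenes of one component (comp112830) were lower and the 1 unigene of the other, comp107579_c0_seq1, was 1.55-fold higher at 17.9 and 27.8 RPKM. By component the list gave 1 higher and 5 lower of 15.

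Phenylalanine is fed into the phenylpropanoid pathway, where 13 of 25 members were higher and 6 lower (median log2 ratio 0.68). Counted by component this turned into 6 higher and 6 lower of 18 (median −0.06), since 8 of the higher unigenes came from just 2 components, comp97637 and comp99227. Phenylalanine ammonia-lyase (PAL), which opens the pathway, was higher in 3 of 4 unigenes. Of these, comp109367_c0_seq10 went from 9.98 to 28.0 RPKM, 2.79-fold higher (2.39 to 3.31), and comp109063_c0_seq1 from 11.5 to 22.5 RPKM, 1.95-fold higher. The next enzyme moved the other way. Cinnamate 4-hydroxylase (C4H) was represented by 1 member, comp106234_c0_seq1, which had 6.60 RPKM in CK0 and 2.28 RPKM in CK5, 2.82-fold lower (2.50 to 3.37).

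The third enzyme, 4-coumarate:CoA ligase (4CL), activates coumarate for flavonoid and lignin synthesis, and 10 of its 20 members were higher and 5 lower. The high group was made of unigenes described as 4CL-like 7, an acyl-activating relative of 4CL. Its leading unigene, comp97637_c0_seq3, had 16.3 RPKM in CK0 and 92.7 RPKM in CK5, 5.65-fold higher (5.43 to 5.95), and stood at 208 RPKM in CK8, 236 in ABA5 and 23.2 in NDGA5. In comp97637 and comp99227, 8 of 9 unigenes were between 5.14- and 5.65-fold higher, while comp97637_c0_seq5 had 2.95 and 1.88 RPKM. Unigenes of one component can share reads. Those described as 4CL 2, a name of the ligase proper, were mixed, with 1 of 6 higher and 2 lower. Of the latter, comp113055_c0_seq3 went from 9.87 to 1.45 RPKM, 6.43-fold lower (5.87 to 7.91).

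In the flavonoid pathway, which ends in anthocyanins and tannin precursors, 19 of 61 members were higher and 26 lower, and by component 8 of 35 were higher and 14 lower. The early and late steps differed in their calls. Chalcone synthase (CHS), the first committed enzyme, was lower in both members. The better expressed one, comp115866_c0_seq11, had 32.0 RPKM in CK0 and 4.98 RPKM in CK5, 6.32-fold lower (5.84 to 7.08). Its level was 110 RPKM in CK8, 26.3 in ABA5 and 6.73 in NDGA5, so that CK5 was the lowest of these libraries. Chalcone isomerase (CHI), which closes the ring of the chalcone, was lower in both members as well, at 56.8 and 36.8 RPKM in comp100721_c0_seq1 and at 14.3 and 3.50 RPKM in comp105294_c1_seq1. The 1.54-fold difference of the former was lost when CK5 was rescaled by the median ratio. The list of flavanone 3-hydroxylase (F3H), which also held unigenes described as flavonol synthase, had 8 of 12 members lower and 0 higher. Its best expressed unigene, comp105372_c0_seq9, described as naringenin 3-dioxygenase and so as F3H itself, had 28.5 RPKM in CK0 and 12.6 RPKM in CK5.

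The late steps lead from dihydroflavonols to coloured anthocyanins. Dihydroflavonol 4-reductase (DFR) was higher in 8 of 13 unigenes and lower in 2. The best expressed one, comp112886_c1_seq3, went from 104 to 195 RPKM, 1.87-fold higher, and comp105601_c0_seq7 from 38.5 to 104 RPKM, 2.69-fold higher. By contrast, comp95572_c0_seq4 went from 3.07 to 0.186 RPKM, 11.1-fold lower (10.3 to 28.3). The 8 higher unigenes were in 2 components, comp105601 and comp112886, and both lower ones in comp95572. Anthocyanidin synthase (ANS), which forms the coloured anthocyanidin, was higher in 1 of 2 members, with 21.7 RPKM in CK0 and 73.0 RPKM in CK5 for comp101059_c0_seq11, 3.36-fold. This unigene had 33.2 RPKM in CK8, 121 in ABA5 and 41.8 in NDGA5.

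Glucosyltransferases attach the sugar that stabilises anthocyanins, and of 28 members 9 were higher and 11 lower. The largest gain in RPKM among them was in comp108011_c0_seq2, from 27.5 to 125 RPKM, 4.53-fold. Weakly expressed unigenes described as flavonoid 3-O-glucosyltransferases, comp111895_c0_seq5 and comp113078_c0_seq7, went from 0.301 to 3.94 RPKM and from 0.412 to 4.51 RPKM. Another, described as anthocyanidin 3-O-glucosyltransferase (comp103854_c0_seq2), went from 1.95 to 0.175 RPKM. The branch to proanthocyanidins, the tannins of green fruit, runs through anthocyanidin reductase (ANR) and leucoanthocyanidin reductase (LAR). The main ANR unigene, comp103703_c0_seq1, had 37.2 RPKM in CK0 and 8.43 RPKM in CK5, 4.37-fold lower (4.06 to 4.80), whereas comp101618_c0_seq3 went from 4.12 to 7.88 RPKM. LAR was at 4.39 and 4.11 RPKM and was not called.

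**Figure D4:**
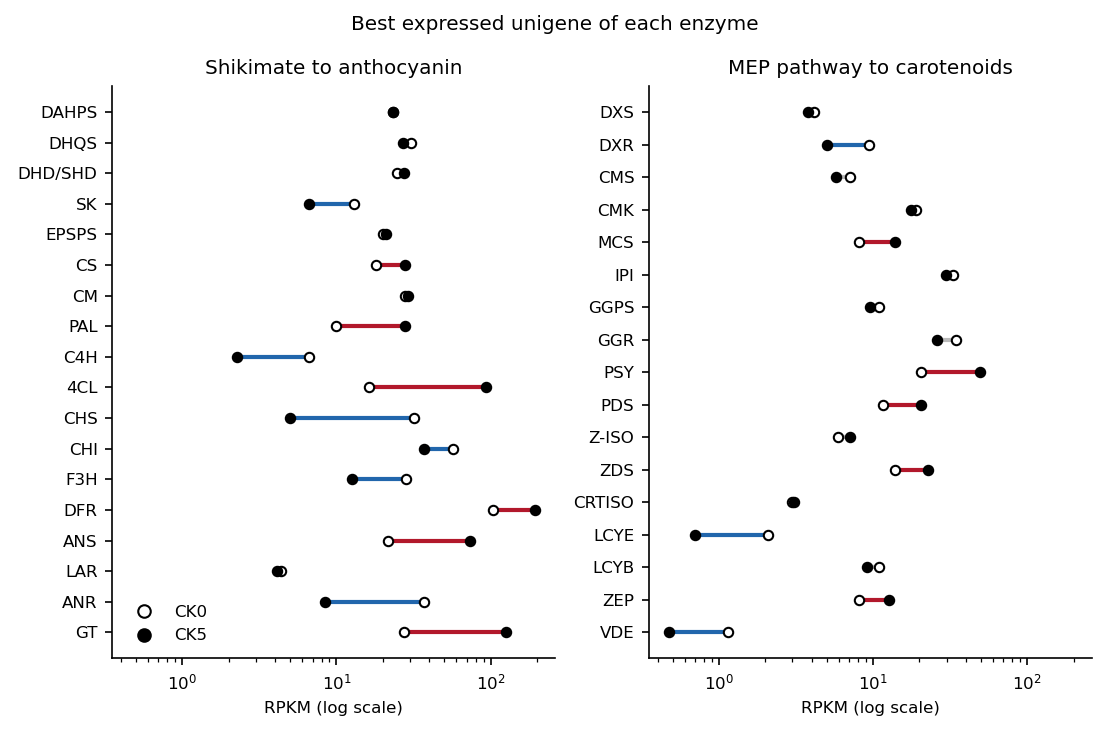
For enzymes from the shikimate pathway to anthocyanins and from the MEP pathway to carotenoids, the member with the highest mean RPKM is drawn. Its RPKM in CK0 and in CK5 is placed on a logarithmic axis and joined by a line. 4CL, ANS and PSY lie higher in CK5, and CHS and ANR lie lower.

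Of the 9 members listed as flavonoid regulators, 1 was higher and 7 were lower. The higher one was described as MYB113, an R2R3-MYB factor that activates anthocyanin genes in Arabidopsis. The unigene, comp113395_c0_seq6, had 0.172 RPKM in CK0 and 8.46 RPKM in CK5, from 13 and 686 reads, 31.5-fold higher (28.7 to 93.1). Its level was 119 RPKM in CK8, 58.0 in ABA5 and 1.04 in NDGA5, so CK5 lay between the 2 treatments of the same day. All 3 unigenes described as TT2, a MYB factor that drives proanthocyanidin synthesis in the Arabidopsis seed coat, were lower. The largest ratio among them was in comp109292_c0_seq1, from 3.26 to 0.471 RPKM, 5.89-fold lower (4.86 to 10.1). HY5, a bZIP factor of light signalling, was lower in 3 of 3 unigenes, with 29.3 and 15 RPKM in comp106434_c0_seq1. TT8, the bHLH partner of such MYB factors, was not called at 16.3 and 18.0 RPKM in comp118358_c0_seq4.

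The primers used by the study for CHS and phytoene synthase (PSY) are shown with the unigene of each pair, written from 5′ to 3′. The CHS pair belongs to the unigene whose values are given above. The PSY pair belongs to comp109519_c0_seq12, with 16.4 RPKM in CK0 and 37.9 RPKM in CK5, and not to the best expressed PSY unigene given below.
CHS comp115866_c0_seq11 forward: cttcaagttcaagcagccaca
CHS comp115866_c0_seq11 reverse: gaaggagtggggtgttctgtt
PSY comp109519_c0_seq12 forward: tgccacttgtctgtcactttcc
PSY comp109519_c0_seq12 reverse: gcccttggaatcgctaatca

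Carotenoids are built from the C5 units of the plastidial MEP pathway. Of its 24 members, 2 were higher and 7 lower. DXP reductoisomerase (comp104668_c0_seq5) was 1.84-fold lower at 9.34 and 5.02 RPKM, and MECDP synthase (comp107609_c0_seq2) was 1.68-fold higher at 8.15 and 13.8 RPKM. The cytosolic mevalonate pathway had 0 higher and 2 lower of 7, namely HMG-CoA synthase (comp112067_c0_seq2), from 13.7 to 8.37 RPKM, and mevalonate kinase (comp108317_c1_seq2), from 14.1 to 7.62 RPKM. Of 4 members that build or reduce the geranylgeranyl chain, 0 were higher and 2 lower, and 1 of these was lost on rescaling.

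Within carotenoid synthesis, 11 of 27 members were higher and 4 lower, and by component 5 of 15 were higher and 3 lower. Phytoene synthase (PSY), the entry enzyme, was higher in 7 of 7 members, which came from 2 components, with log2 ratios from 1.20 to 1.41. The best expressed, comp110189_c0_seq5, had 20.5 RPKM in CK0 and 49.0 RPKM in CK5, 2.38-fold higher, and had 57.4 RPKM in CK8, 78.1 in ABA5 and 24.1 in NDGA5. Of the following desaturases, phytoene desaturase was higher in 2 of 4 members, both of 1 component, with 11.5 and 20.4 RPKM in comp110404_c0_seq12, and was not called in the other component, comp99208, with 1.06 and 0.718 RPKM in comp99208_c0_seq2. The 1 zeta-carotene desaturase member was higher, with 13.9 and 22.8 RPKM in comp117631_c0_seq4. Isomerases were not called in any of 9 unigenes, 3 of which were described as D27, a beta-carotene isomerase of strigolactone synthesis.

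At the branch point of lycopene, the epsilon cyclase that leads to lutein was lower in 2 of 2 members, at 2.08 and 0.698 RPKM in comp105236_c0_seq1, while the beta cyclase (comp105524_c0_seq4) was not called at 10.9 and 9.11 RPKM. Carotene epsilon-monooxygenase, the hydroxylase of the lutein branch, went from 1.48 to 0.720 RPKM in comp102493_c1_seq2. The enzymes of the xanthophyll cycle, which feeds ABA synthesis, moved apart. Zeaxanthin epoxidase (comp108626_c0_seq2) was 1.56-fold higher at 8.13 and 12.8 RPKM, and violaxanthin de-epoxidase (comp100864_c0_seq2), which runs the reverse reaction, was 2.17-fold lower at 1.15 and 0.474 RPKM from 43 and 19 reads.

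Chlorophyll is broken down as the green colour is lost. Of the 20 members for this pathway 2 were higher and 7 lower, and by component 1 of 9 was higher and 2 lower. NYC1, a chlorophyll b reductase, was 2.85-fold higher in comp109663_c0_seq2, at 1.96 and 5.77 RPKM, while its partner NOL (comp111066_c0_seq4) had 5.85 and 3.71 RPKM, 1.56-fold lower, a call lost on rescaling. Chlorophyllase, which removes the phytol tail, was lower in 3 of 3 weakly expressed members. Chlorophyllase-1 (comp92999_c0_seq3) had 70 reads in CK0 (2.04 RPKM) and none in CK5, at least 25-fold lower at a floor of 3 reads. Pheophorbide a oxygenase (comp106745_c0_seq2), which opens the ring, and red chlorophyll catabolite reductase (comp109834_c0_seq3) were not called, at 10.6 and 11.6 RPKM and at 13.6 and 12.8 RPKM.

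Ascorbate is made from hexose phosphates by way of GDP-mannose and L-galactose. Of its 27 members 1 was higher and 10 lower, and by component 1 of 17 was higher and 5 lower. Mannose-6-phosphate isomerase (MPI) was lower in 5 of 7 members, all of 1 component, with 16.7 and 4.42 RPKM in comp107047_c0_seq13, 3.71-fold. Another MPI unigene, comp93780_c0_seq2, was 1.61-fold higher at 1.17 and 1.93 RPKM, so that by component 1 of 3 was higher and 1 lower. The steps from GDP-mannose on were lower too. GDP-mannose epimerase (comp105706_c0_seq1) had 93.0 and 58.2 RPKM, 1.60-fold lower, and L-galactose dehydrogenase (comp104149_c0_seq2) 19.0 and 12.1 RPKM, 1.57-fold lower, both of which were lost on rescaling. GDP-L-galactose phosphorylase (GGP), regarded as the main control point of the route in plants, was lower in 3 of 3 members. Its leading unigene comp118304_c0_seq1 had 149 RPKM in CK0 and 84.2 RPKM in CK5, 1.77-fold lower, and comp107079_c0_seq8 had 24.5 and 7.48 RPKM, 3.24-fold lower. The last enzyme, galactonolactone dehydrogenase (comp112527_c0_seq3), was not called at 13.6 and 11.9 RPKM.

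Folates are assembled from pterin, para-aminobenzoate and glutamate parts. In folate synthesis 0 of 34 members were higher and 12 lower, and by component 0 of 14 and 5 of 14. The lower calls were in both precursor branches and in dihydrofolate reductase, where 2 of 7 were lower. GTP cyclohydrolase 1 (comp116715_c0_seq1), the first step of the pterin branch, had 8.93 and 4.57 RPKM, 1.93-fold lower. Para-aminobenzoate synthase was lower in 7 of 8 members, with 4.31 and 1.94 RPKM in comp112714_c0_seq16. Folylpolyglutamate synthase, which adds the glutamate tail at the end, was called in 0 of 14 members. Its counterpart gamma-glutamyl hydrolase, which removes the tail, was called in 0 of 5, with 26.5 and 30.0 RPKM in comp109108_c0_seq11. Glycosyltransferases that act on para-aminobenzoate or related acids were split, with 2 of 4 higher and 2 lower. Of these, UGT75B1 (comp110412_c0_seq5) had 3.43 and 7.09 RPKM, and a unigene described as UGT74F2 (comp108959_c0_seq2) had 6.98 and 1.49 RPKM. Other unigenes described as UGT74F2 went both ways. The level of comp69824_c0_seq1 went from 0.107 to 1.74 RPKM (2 and 35 reads) and that of comp47969_c0_seq1 from 1.52 to 0.189 RPKM.

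Among the members described only in the degradome table, the largest gains in RPKM were in 3 unigenes annotated as protein-folding factors. The unigene comp114631_c0_seq1, annotated as FK506-binding protein 4/5, a peptidyl-prolyl isomerase that works with chaperones, had 8.49 RPKM in CK0 and 139 RPKM in CK5, 16.2-fold higher (15 to 17.9). A second unigene of this annotation, comp114965_c0_seq5, had 59.4 and 204 RPKM, and the chaperone DnaK (comp116038_c0_seq4) had 55.6 and 152 RPKM. Other chaperones were not called, with 1.80 and 1.75 RPKM for heat shock 70kDa protein 5 (comp85541_c0_seq1) and 39.7 and 31.3 RPKM for a DnaJ homolog (comp114559_c0_seq12). Glycogen synthase kinase 3 beta (comp118758_c0_seq7) was 4.29-fold higher at 0.887 and 4.14 RPKM. In sulfur metabolism the ratios went in both directions. Adenylyl-sulfate reductase (comp106045_c0_seq1), which reduces activated sulfate, had 32.7 and 3.72 RPKM, 8.58-fold lower (7.97 to 9.70). Cystathionine gamma-synthase (comp114088_c0_seq3), which leads to methionine, had 58.3 and 143 RPKM, 2.44-fold higher, while homocysteine methyltransferase (comp107882_c0_seq12), the next enzyme to form methionine, had 97.5 and 60.9 RPKM, 1.60-fold lower and lost on rescaling. That unigene and comp107882_c0_seq3 had nearly the same counts, 10443 and 10445 reads in CK0.

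Further decreases in level were in enzymes of central metabolism and in 1 histone unigene. Phosphoenolpyruvate carboxylase (comp110551_c1_seq2), which replenishes organic acids, had 76.1 and 38.1 RPKM. MPBQ/MSBQ methyltransferase (comp116737_c0_seq4), of tocopherol and plastoquinone synthesis, had 54.2 and 23.7 RPKM. Malate synthase (comp92027_c0_seq1), a glyoxylate cycle enzyme typical of germinating seeds, went from 238 to 8 reads (2.62 to 0.0822 RPKM). Histone H2A (comp100350_c0_seq8) had 118 and 73.1 RPKM, while the other H2A unigene, comp99263_c2_seq2, was not called at 9.42 and 13.5 RPKM. Of 24 members with a Gene Ontology term from a list of words for cell division, which also took in histone-modifying enzymes, 1 was higher and 4 were lower. These shares were below the 17.1% and 30% of all members. They were also below those of the 1071 members with a Gene Ontology term, of which 114 were higher and 302 lower. The term cell division itself had 18 members, 1 higher and 4 lower. By component 1 of its 11 was higher and 3 were lower, beside 15.8% and 29.9% of all components. Of the 735 components with a Gene Ontology term, 78 were higher and 208 lower.

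Gene Ontology terms were deposited only for transcripts in the degradome table, that is, for predicted targets of small RNAs. Of the 1071 members with a term, 114 were higher and 302 lower (median log2 ratio −0.17). The groups and unigenes of the next paragraphs were picked after their values were seen. Counted by unigene, receptor activity had the largest share of lower calls among the 58 terms with at least 10 components, as 37 of its 55 members were lower and 5 higher. Its members came from 23 components, of which 11 were lower and 3 higher, a smaller share than the 8 of 16 components of defense response, apoptosis or cellular cell wall organization. Serine/threonine kinases, to which many receptors belong, had 53 of 119 lower and 10 higher, but by component 20 of 66 were lower and 8 higher, close to the 29.9% of all components that were lower. Defense response had 10 of 21 lower and 1 higher (8 of 16 components lower), and plasma membrane 43 of 115 lower and 3 higher (29 of 82 components lower). No member was lower in ribosome (4 of 12 higher), translation (2 of 14 higher) or RNA splicing (3 of 11 higher), while mRNA processing had 3 of 16 higher and 4 lower.

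The cell wall of the receptacle is loosened during both expansion and softening. Of 14 members with a cell wall term from a list of such words, 2 were higher and 6 lower. In the wider term cellular cell wall organization, 5 of 22 members were higher and 12 lower, and by component 3 of 16 and 8 of 16. Large changes in RPKM were found in both directions. The 3 unigenes of comp104453, with the term cellulase, an activity that cuts beta-glucan chains, were from 15.6- to 16.4-fold higher. Of these, comp104453_c0_seq9 had 16.7 RPKM in CK0 and 262 RPKM in CK5 (14.9 to 16.5), and 200.3 RPKM in CK8, 476 in ABA5 and 56.1 in NDGA5. Another unigene with the term cellulase, comp114929_c0_seq4, had 224 and 137 RPKM, 1.63-fold lower. The greatest change downward was in comp105187, whose term was xyloglucosyl transferase, the activity that cuts and rejoins xyloglucan. Its unigene comp105187_c1_seq12 had 341 RPKM in CK0 and 92.4 RPKM in CK5, 3.69-fold lower, and 42.1 RPKM in CK8 and 27.9 in ABA5. A cellulose synthase unigene (comp117120_c0_seq5) had 179 and 100 RPKM, while a weakly expressed one of the same term (comp111405_c0_seq2) was 2.84-fold higher at 0.324 and 1.10 RPKM. A pectinesterase unigene (comp104345_c0_seq1) had 64.2 and 97.0 RPKM, 1.51-fold higher. The 6 unigenes described as beta-galactosidase were not called, with log2 ratios from −0.42 to −0.28.

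Members were also listed by hormone, through Gene Ontology terms alone. The counts can be read beside those of all 1071 members with a term, 114 higher and 302 lower. By component, 78 of 735 with a term were higher and 208 lower. Of all members, with or without a term, 17.1% were higher and 30% lower. Of 18 members with an auxin term, 10 were lower and 1 higher (median log2 ratio −0.62), and by component 6 of 14 were lower and 1 higher. A unigene of the term response to auxin with ligase activity, comp111343_c0_seq1, went from 4.53 to 0.191 RPKM, 15.9-fold lower. Both gibberellin members were lower, and the better expressed of them, comp102848_c0_seq1, whose term was ent-kaurenoate oxidase, an early enzyme of gibberellin synthesis, had 13.4 and 1.33 RPKM. For ethylene 2 of 18 were higher and 2 lower. The larger gain was in comp107651_c0_seq1, a DNA-binding factor of ethylene signalling by its terms, with 5.83 and 27.1 RPKM, 4.58-fold. A unigene annotated as ACC oxidase (comp108198_c0_seq9), the last enzyme of ethylene synthesis, was not called at 15.3 and 20.6 RPKM. For ABA 2 of 21 were higher and 3 lower (median 0.02), and among the signalling unigenes comp115762_c0_seq1 went from 19.3 to 8.05 RPKM and comp117628_c1_seq4 from 12.3 to 26.6 RPKM. Of 5 members with a photosynthesis term 0 were higher and 3 lower, and by component 2 of 4 were lower. All were under 5 RPKM in both libraries. The one described as a photosystem I protein (comp93279_c0_seq2) was not called at 3.69 and 4.89 RPKM.

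Small RNAs guide the cutting of their target transcripts, and the degradome libraries recorded the cut ends. Members held 411 predicted cleavage sites with at least 1 read in CK0 or CK5, of which 72, in 70 unigenes of 46 components, had at least 10. Small RNAs of most of the sites described below are given here as deposited, from 5′ to 3′ with their seed, bases 2 to 8, in capitals. Some are variants of the named miRNA by a base or an end. The miR156a variant has an added base at its 5′ end, so its capitals are shifted by that base.
miR482: tCTTTCCTattcctcccatccc
miR393a: tCCAAAGGgatcgcattgatc
miR160a: tGCCTGGCtccctgtatgcca
miR164a: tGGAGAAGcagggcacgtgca
miR319a: tTGGACTGaagggagctcct
miR156a: tTGACAGAagagagtgagcac
miR166a: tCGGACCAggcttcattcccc
miR828a: tCTTGCTCaaatgagtattcca

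In RPKM, 39 of the 70 unigenes with such a site were lower and 1 was higher (median log2 ratio −0.71), beside 30% and 17.1% of all members. Of the lower ones 10 were unigenes of 1 component, comp100446. By component 21 of 46 held a lower unigene and 1 a higher one. Of the 24894 components with a member, 9463 held a lower unigene and 5665 a higher one. The CK0 degradome was 2.23 times deeper than that of CK5 if the deposited site score, which the sources do not define, is a scaled read count, as it was read from its values. The site ratios below were adjusted for this depth and rest on that reading. Raw reads were fewer in CK5 at 69 of 72 sites, and after the adjustment 38 sites (52.8%) were at least 1.5-fold lower, 10 (13.9%) higher and 24 within that limit. Counted by the best covered site of each component, 27 were lower, 6 higher and 13 within it. The minimum of 10 reads was set on raw counts, so sites with more reads in the deeper CK0 library passed it more easily. That choice favours lower sites, and these counts alone do not show a direction. The 70 unigenes rest on the same choice. The counting interval of the ratio left out 1 for 23 of the lower and 9 of the higher sites. Of the 38 lower sites, 21 were in unigenes whose RPKM was lower as well and 17 in unigenes that were not called.

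The best covered site was that of miR482, a small RNA that targets disease resistance genes in many plants, in comp100446_c0_seq7. It had 2574 reads in CK0 and 1704 in CK5, 1.48-fold higher after depth (1.39 to 1.57), while the level of the transcript went from 7.99 to 2.76 RPKM. All 10 unigenes of comp100446 had this site with nearly the same reads, and their ratios after depth lay from 1.45 to 1.53, so that 3 of them were counted as higher. A second miR482 site, in comp91920_c0_seq1, had 328 and 289 reads, 1.97-fold higher (1.67 to 2.31), beside 3.23 and 1.77 RPKM. Sites of miR482 with fewer reads went the other way or stayed within the limit. In comp97298_c0_seq6 there were 75 and 7 reads, 4.80-fold lower (2.22 to 12.3). The site in comp81114_c0_seq1 had 26 and 1 reads, 11.6-fold lower (1.91 to 477), and that in comp112346_c0_seq1, with 54 and 18, was within the limit. The miR393a site in comp112242_c0_seq9, a transcript with an auxin term, had 2149 and 924 reads, which after depth was a 1.04-fold difference (0.963 to 1.13).

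Sites of miR160a, known to target auxin response factors, were lower. In comp117557_c0_seq21, which carries the term auxin signalling with DNA binding, the reads were 461 and 47, 4.39-fold lower after depth (3.25 to 6.06), beside 15.6 and 7.08 RPKM. In comp100456_c1_seq1 they were 186 and 18, 4.62-fold lower (2.85 to 7.98), beside 2.41 and 1.85 RPKM. For miR164a, whose known targets are NAC factors, a site in comp109189_c0_seq5 was 4.08-fold lower with 173 and 19 reads, whereas that in comp107355_c0_seq11 was within the limit with 99 and 49 reads (0.769 to 1.57). The miR319a site of comp120317_c0_seq1 had 146 and 12 reads, 5.45-fold lower (3.02 to 10.8), beside 9.29 and 2.79 RPKM. At the miR156a site of comp119269_c0_seq4, position 2957, the 48 and 46 reads made a 2.14-fold higher ratio (1.40 to 3.28), with the transcript at 16.3 and 14.2 RPKM. Position 2956 of this transcript, assigned to another miR156 variant, had 29 and 14 reads and was within the limit (0.527 to 2.11). At a site of miR828a, a family known to target MYB factors, there were 92 and 14 reads in comp93532_c0_seq2, 2.94-fold lower (1.67 to 5.59), beside 2.91 and 2.18 RPKM. For miR166a, which targets HD-ZIP III factors of organ polarity, comp114529_c0_seq3 had 68 and 18 reads, 1.69-fold lower with an interval that reached 1 (0.994 to 3.02), beside 9.68 and 5.07 RPKM. A miR2111a site in comp118753_c0_seq11 had 321 and 121 reads and a miR172b site in comp109158_c0_seq2 had 131 and 42, and both were within the limit after depth. These sites are positions in assembled transcripts, and whether a lower site count went with less cutting or with less transcript was not tested.

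**Figure D5:**
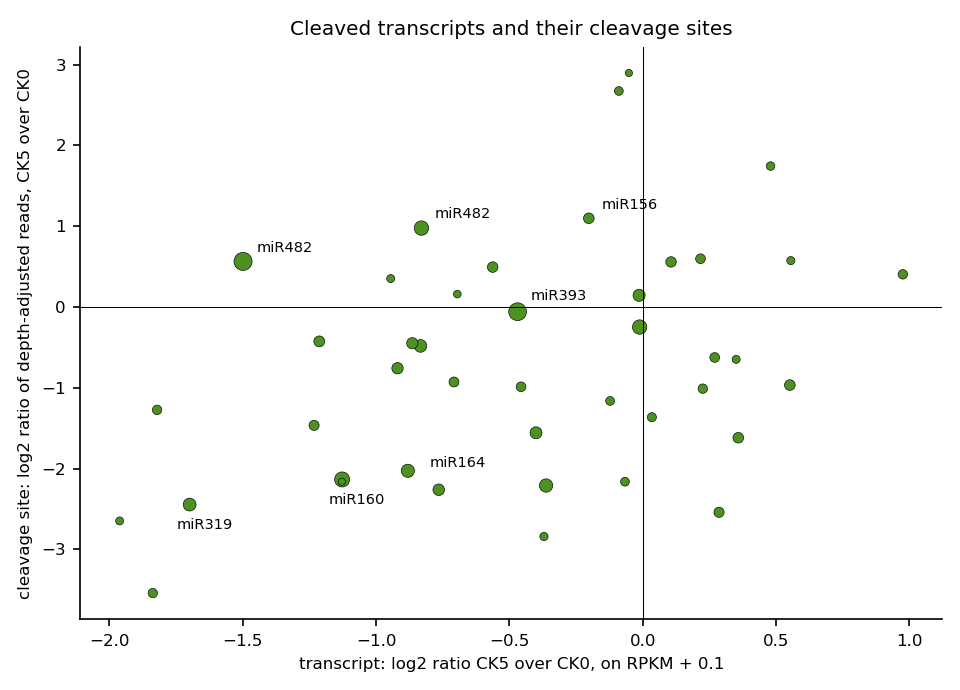
For the best covered site of 43 components, the log2 ratio of degradome reads after depth (vertical axis, CK5 over CK0) is plotted against the log2 ratio of the transcript's RPKM + 0.1 (horizontal axis), and the 3 components with no site read in CK5 are not drawn. More points lie below 0 than above it on both axes. The sites were chosen on raw reads, which favours those with more reads in the deeper CK0 library.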

How the data were processed

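The authors quality-filtered 100 bp paired reads of polyA RNA, assembled unigenes with Trinity and TGICL, described them by BLASTx and deposited each level as RPKM with the unigene's length. Versions and the counting program were not given in the sources used here. Since no genome was used, copies from the subgenomes of the octaploid may be merged or split, and unigenes of a component can share reads. NA was taken as 0. RPKM × length × library total gave whole reads for 100% of values (within 0.02 reads, or 2e-05 of the count), from which the depth of 57773971 (CK0) and 61805561 (CK5) reads was obtained. The degradome table deposited by the authors holds raw read counts per site and a score per site. The sources do not define the score. From its values it was read as a constant of each library times the reads shared over sites, and it was used only for the relative depth, on which the site ratios rest. Columns with p-values, false discovery rates and significance are the authors' own comparisons and were not used, nor were 45 other columns of per-sample values (small RNAs and the other degradome libraries).

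A ratio was log2 of CK5 over CK0 on RPKM + 0.1, called at 1.5-fold where either library had at least 1 RPKM. Intervals were exact Clopper-Pearson at 95%, and a count of 0 was set to 3 reads for a fold. No test between conditions was made, with 1 library each. Component levels were summed reads over the longest unigene. Named unigenes (105) were the best expressed member of each listed enzyme, the described members with the largest folds and RPKM changes in each direction, those with a primer, and 2 undescribed ones in each direction. Gene Ontology terms, cleavage sites and a few pathway unigenes were added after their values were seen. The members and lists were chosen with earlier results of these data known. The scripts were tested on simulated data and used Python 3.11.15, numpy 2.4.6, pandas 2.3.3, scipy 1.17.1 and matplotlib 3.10.9. Alternatives were the pseudocount, the minimum, the fold, rescaling, a chi-square test on reads and counting by component.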

Additional observations from a re-analysis of the deposited data

How the results depend on the processing

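Against 8695 higher and 15300 lower unigenes, the counts were 22363 and 40422 with no minimum, 3590 and 5254 at a minimum of 5 RPKM, 5302 and 8467 with 1 RPKM in both libraries (chosen after seeing the data), 4733 and 9115 at 2-fold, 1390 and 3155 at 4-fold, 4047 and 7264 with 1 unigene per component, and 4093 and 7746 by component. A chi-square test on reads, a test of 2 libraries alone and not of their conditions, called 14580 and 22969, and the nearer bound of the counting interval gave 5303 higher and 10352 lower. For components, 4093 higher and 7746 lower became 13667 and 26152 with no minimum, 2066 and 3456 at 5 RPKM, 2238 and 4724 at 2-fold, and 753 and 1907 at 4-fold. Pseudocounts of 0.01 and 1 RPKM and the rescaling kept the unigene counts within 1.5 times. Members read in 1 library alone fell from 167 and 728 to 1 and 27 at 5 RPKM. The 100 best expressed unigenes took 11% of CK0 reads and 12.9% of CK5 reads, or 10.9% and 12.5% when ranked by the mean of both. For the pathway lists, 52 higher and 96 lower became 33 and 60 at 2-fold, 27 and 55 by component, 43 lower at 5 RPKM, and 31 lower on the list of differential unigenes alone. Among the 105 named unigenes no direction was reversed, and 24 calls were lost at 2-fold, 6 on rescaling, 6 at the nearer bound of the counting interval, 3 at a pseudocount of 1 RPKM and 0 at one of 0.01 RPKM. A minimum, a component count or a higher fold changes the counts by its own construction, and the cause of the other changes was not tested. No paired analysis was possible because each condition has 1 library, and for the same reason no replicate could be left out. Depth limits the weakest members, since 1 read in a transcript of 1 kb is worth 0.0173 RPKM in CK0.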
